A study of Mus musculus with 8 samples.

Results

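The genes described here belong to 3 families that move membrane between compartments: the Rab GTPases, the synaptotagmins and the SNARE proteins. They were chosen by symbol, as numbered Rab, Syt, Stx (syntaxin) and Vamp genes together with Snap23, Snap25, Snap29 and Snap47. Of the 27179 genes of the table, 102 fit, namely 59 Rab genes, 17 synaptotagmins and 26 SNARE genes (15 Stx, 7 Vamp and 4 Snap). A cell sorts its vesicles with Rab proteins, which mark a membrane as endosome, Golgi or secretory vesicle and recruit tethers and motors. SNAREs on the vesicle (VAMPs) and on the target membrane (syntaxins and SNAP proteins) then zip together and drive fusion. Synaptotagmins carry C2 domains that in several members bind calcium, and Syt1 is the calcium sensor of fast transmitter release at synapses.

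Total RNA was sequenced from mouse brain, heart, kidney and liver, each as formalin-fixed paraffin-embedded (FFPE) tissue and as flash-frozen tissue. The 8 groups, FFPE brain, frozen brain, FFPE heart, frozen heart, FFPE kidney, frozen kidney, FFPE liver and frozen liver, hold 1 library each. All libraries share Trizol extraction and shearing in a PIXUL sonicator, and FFPE tissue was deparaffinised first. The labels do not state strain, age, sex, the number of animals or any genetic or drug treatment. Levels are in counts per 1000000 reads (CPM) on the scale set by the authors. The recovered totals ran from 10180972 reads in FFPE brain to 20526813 in frozen heart, and the limit that 0 reads allows (3 reads) from 0.119 CPM in frozen brain to 0.292 CPM in frozen heart. Markers of heart muscle, of kidney tubule and of hepatocytes were highest in the organ of their label, with summed levels of 20535 and 23302 CPM for heart muscle in FFPE and frozen heart against at most 10.0 CPM elsewhere. Neuron markers summed to 508 and 418 CPM in FFPE and frozen brain, against at most 19.4 CPM elsewhere. The libraries come from bulk tissue, and the labels do not say which piece of an organ was taken, so fewer cells of a type and less RNA per cell cannot be told apart.

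Promoter sequences show what kind of start sites the members have. In the RefSeq table for GRCm38.p6, 80 of the 102 members had a promoter window (300 bases, most of them upstream of the start). The first pair below stands for brain-restricted members, Rab6b of the Golgi and Syt1, the second holds the shared Rab10 and Snap23, which was lower in brain, and the third Vamp8, also lower in brain, and the kidney-restricted Rab25. Each is written 5′ to 3′ on the gene's strand, with CG dinucleotides in capitals. They lie at chr9:103111824-103112123 (plus strand), chr10:109010926-109011225 (minus), chr12:3309920-3310219 (minus), chr2:120567421-120567720 (plus), chr6:72390618-72390917 (minus) and chr3:88548230-88548529 (minus).
Rab6b: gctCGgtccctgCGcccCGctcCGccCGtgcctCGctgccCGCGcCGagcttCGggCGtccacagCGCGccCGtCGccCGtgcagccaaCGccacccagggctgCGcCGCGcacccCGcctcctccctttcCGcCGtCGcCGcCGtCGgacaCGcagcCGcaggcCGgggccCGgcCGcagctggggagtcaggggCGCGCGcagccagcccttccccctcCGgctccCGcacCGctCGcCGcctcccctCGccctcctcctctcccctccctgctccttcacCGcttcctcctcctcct
Syt1: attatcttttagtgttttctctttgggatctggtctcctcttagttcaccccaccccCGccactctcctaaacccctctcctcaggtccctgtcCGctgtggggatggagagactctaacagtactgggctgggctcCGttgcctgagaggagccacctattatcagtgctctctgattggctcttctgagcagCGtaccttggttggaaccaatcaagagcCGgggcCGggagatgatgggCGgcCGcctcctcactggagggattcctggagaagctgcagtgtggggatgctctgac
Rab10: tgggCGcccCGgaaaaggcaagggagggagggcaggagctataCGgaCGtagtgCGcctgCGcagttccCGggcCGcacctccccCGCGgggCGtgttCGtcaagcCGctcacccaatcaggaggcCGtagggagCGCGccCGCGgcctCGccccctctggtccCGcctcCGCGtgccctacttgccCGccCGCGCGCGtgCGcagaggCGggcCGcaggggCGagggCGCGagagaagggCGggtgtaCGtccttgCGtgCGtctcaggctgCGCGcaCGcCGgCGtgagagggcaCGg
Snap23: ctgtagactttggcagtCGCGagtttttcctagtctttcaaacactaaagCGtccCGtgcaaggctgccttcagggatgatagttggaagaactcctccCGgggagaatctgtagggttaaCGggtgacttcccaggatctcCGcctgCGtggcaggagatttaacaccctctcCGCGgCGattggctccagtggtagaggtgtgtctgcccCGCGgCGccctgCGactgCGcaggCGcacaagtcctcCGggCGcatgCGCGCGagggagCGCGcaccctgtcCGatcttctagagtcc
Vamp8: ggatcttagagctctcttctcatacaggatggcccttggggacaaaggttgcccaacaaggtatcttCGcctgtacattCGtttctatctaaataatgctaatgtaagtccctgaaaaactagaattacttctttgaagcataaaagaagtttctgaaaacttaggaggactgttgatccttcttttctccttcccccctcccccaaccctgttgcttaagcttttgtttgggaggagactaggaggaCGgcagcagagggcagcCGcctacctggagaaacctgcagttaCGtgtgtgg
Rab25: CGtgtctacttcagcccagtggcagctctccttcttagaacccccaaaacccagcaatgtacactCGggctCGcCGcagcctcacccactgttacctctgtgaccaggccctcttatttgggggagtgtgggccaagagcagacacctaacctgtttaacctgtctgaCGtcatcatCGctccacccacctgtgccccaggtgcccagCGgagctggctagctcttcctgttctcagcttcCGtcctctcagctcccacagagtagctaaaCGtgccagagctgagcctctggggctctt
The Rab6b and Rab10 windows hold 42 and 43 CG dinucleotides, while Syt1 (the start with more of them), Vamp8 and Rab25 hold 8, 5 and 9, and Snap23 holds 25. A CG-rich window thus occurs in a brain-restricted gene and in a shared gene alike. Taking the start with the most CG per gene, the median over members was 23 (range 3 to 49, n = 80), beside 8 over 27025 genes with a window. It was 19 for the 13 brain-restricted members with a window and 26 for the 32 shared ones. GGGCGG, the core of the GC box, was searched on both strands and stood in 61 member promoters (76.2%), beside 38.2% of all promoters. It stood in 11 of the 13 brain-restricted (84.6%) and in 27 of the 32 shared promoters (84.4%). TATAAA, searched on both strands, stood in 6 member promoters (7.5%), beside 15.7% of all. The promoters set beside the members belong to genes of any level in these libraries. Of the 102 members, 95 exceeded 1 CPM in at least 2 libraries, so the background is unlike them in level. The motifs cannot overlap each other, and a match is a description of letters only.

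Members took 0.727% and 0.593% of all reads in FFPE and frozen brain, against 0.0606% to 0.182% in the other 6 libraries. In summed level, synaptotagmins differed most between brain and the other organs, and Rab genes least. Summed synaptotagmin levels were 1149 and 1054 CPM in FFPE and frozen brain, against 12.5 to 56.6 CPM in the other 6 libraries. SNARE genes summed to 1273 and 1034 CPM in brain, against 292 to 395 CPM elsewhere, and Rab genes to 1714 and 1866 CPM in brain, against 766 to 1045 CPM. The number of members above 1 CPM differed less for Rab genes (48 and 48 in brain, 41 to 46 elsewhere) and SNAREs (22 and 22 in brain, 20 to 23 elsewhere) than for synaptotagmins (16 and 15 in brain, 3 to 8 elsewhere). So the heart, kidney and liver libraries held most of the Rab and SNARE repertoire and few synaptotagmins.

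**Figure D1:**
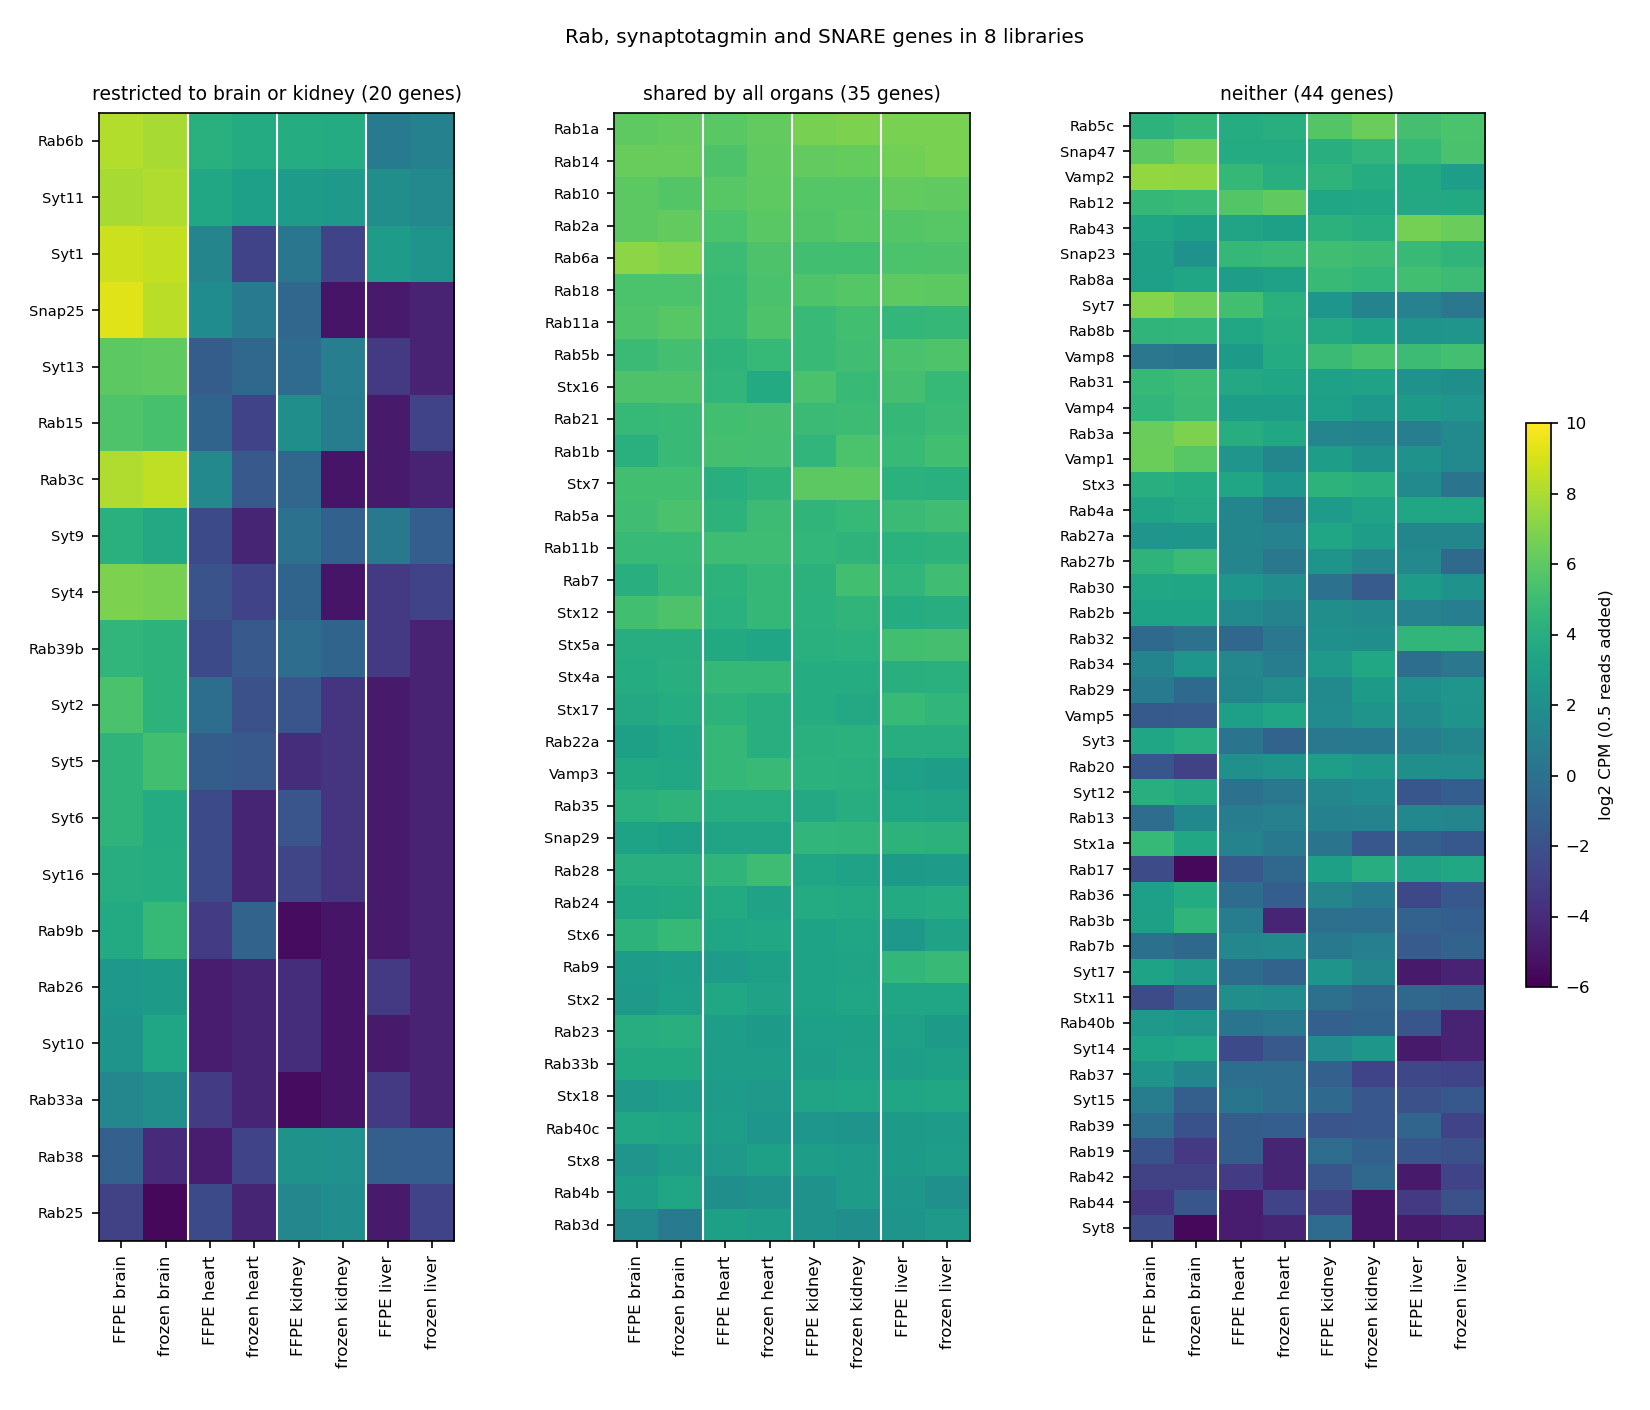
Level of 99 members with reads (rows) in the 8 libraries (columns), as log2 CPM with 0.5 reads added, by color. Of the brain-restricted genes 18 head the left panel with the 2 kidney-restricted genes below them, the 35 shared genes fill the middle panel, and the right panel holds the 44 that fit neither class.

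Each organ was set against the mean of the other 3 with limma, and a call needed an adjusted p (Benjamini-Hochberg) under 0.05 over the 15819 genes above 1 CPM in at least 2 libraries. Of the 102 members, 95 passed that level filter. The other 7 were Rab19, Rab39, Rab42, Rab44, Stx19, Syt8 and Vamp7, of which Stx19 and Vamp7 had 0 reads in all 8 libraries. The annotation used for counting is not stated, and in GENCODE M21 Vamp7 lies on an unplaced scaffold, so its 0 is not read as a level. A gene that passed through an organ in which alone it exceeds 1 CPM had to differ there, so its call there is no test. In brain this holds for 11 members (Rab9b, Rab26, Rab33a, Rab37, Rab39b, Syt2, Syt4, Syt5, Syt6, Syt10 and Syt16). It holds for 2 in kidney (Rab25 and Rab38), 1 in heart (Stx11) and 0 in liver. Among all tested genes it holds for 1140 in brain, 302 in kidney, 249 in heart and 328 in liver. The counts that follow are therefore descriptions. The standard errors rest on 2 libraries per organ, 1 FFPE and 1 frozen, and are pooled over the organs. Each gene thus has the same standard error in every organ contrast, such as 0.126 for Rab10. It reflects how much the FFPE minus frozen difference of a gene varied from organ to organ. Nothing in the labels says whether the libraries of an organ came from separate animals or matching pieces. The p-values therefore measure this variation, which may be technical or lie in tissue content. Its source was not tested.

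In brain 54 members were higher (27 Rab, 15 synaptotagmin, 12 SNARE), which is 56.8% of the 95, where 34.7% of all tested genes were. Another 18 were lower (12 Rab, 0 synaptotagmin, 6 SNARE), or 18.9%, where 31.6% of all tested genes were. The median difference over members was 0.80 on the log2 scale, beside 0.05 over all tested genes. By family it was 6.41 for the 16 synaptotagmins, 0.43 for the 55 Rab genes and 0.09 for the 24 SNAREs. In 51 of the 54 both brain libraries exceeded the other 6, and in 11 of the 18 both lay below them. Counts of this kind, here and for the other organs below, were not made over all tested genes. They are therefore not read as particular to members.

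The 6 largest brain differences were those of Snap25, Rab3c, Syt4, Syt1, Rab9b and Syt5. Snap25, the t-SNARE of the presynaptic membrane, had 584 and 321 CPM in FFPE and frozen brain. It had 3.34 and 1.46 CPM in FFPE and frozen heart, 0.589 and 0 in kidney, and 0 reads in both liver libraries. The brain difference was 10.87 ± 0.80 (log2, SE, limma, adjusted p = 7.79e-06). Rab3c, a synaptic vesicle Rab, had 270 and 351 CPM in FFPE and frozen brain. It had 2.88 and 0.292 CPM in heart, 0.589 and 0 in kidney, and 0 reads in both liver libraries, a brain difference of 10.78 ± 0.94 (adjusted p = 1.78e-05). Brain stood clear of the other organs for both genes, while the 2 heart libraries differed from each other for Rab3c.

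Syt1 had 432 and 366 CPM in FFPE and frozen brain, against 2.35 and 0.0975 in heart, 1.18 and 0.117 in kidney, and 7.03 and 4.80 in liver, a brain difference of 8.46 ± 0.68 (adjusted p = 1.21e-05). Liver was thus the next highest organ for Syt1, and its 2 libraries lay above all 4 heart and kidney libraries. Syt4, an atypical synaptotagmin of neuronal vesicles, had 113 and 107 CPM in FFPE and frozen brain and at most 0.544 CPM elsewhere (difference 9.56 ± 0.86). Rab9b had 14.0 and 26.7 CPM in brain and at most 0.487 CPM elsewhere (8.25 ± 0.63). Syt5 had 21.3 and 34.9 CPM in brain and at most 0.379 CPM elsewhere (8.01 ± 0.53). Syt4, Rab9b and Syt5 passed the level filter through brain alone, so their brain differences are descriptions.

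A member was called restricted to an organ where both its libraries exceeded 1 CPM and lay at least 3 log2 units (8-fold) above each of the other 6. That held for 19 members in brain, among them Snap25, Syt1, Syt2, Syt4, Syt5, Syt6, Syt9, Syt10, Syt11, Syt13, Syt16, Rab3c, Rab6b, Rab9b, Rab15, Rab26, Rab33a and Rab39b. These 10 synaptotagmins, 7 Rab genes and 2 SNAREs are 20% of the tested members, where 7.82% of all tested genes were brain-restricted. The class is defined by these levels and carries no test. Summed, the 19 had 2276 and 2019 CPM in FFPE and frozen brain, against 12.9 to 42.5 CPM in the other 6 libraries. Just inside the threshold lay Rab6b (a gap of 3.75), Rab15 (3.41) and Syt9 (3.15), and just outside lay the vesicle SNAREs Vamp1 (2.92) and Vamp2 (2.73) and the synaptic vesicle gene Rab3a (2.42).

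The brain-restricted members spanned a wide range of levels. Syt11, which lacks calcium binding and is linked to vesicle recycling, had 236 and 271 CPM in FFPE and frozen brain and 2.78 to 11.98 CPM in the other 6 libraries. Rab6b, the neuronal form of the Golgi Rab6, had 284 and 243 CPM in brain, 18.0 and 14.1 in heart, 15.2 and 14.0 in kidney, and 1.45 and 2.02 in liver. These genes were readily counted outside brain. At the low end Rab33a had 2.62 and 3.73 CPM in brain, Rab26, a Rab of secretory and synaptic vesicles, 5.86 and 6.66 CPM, and Syt10 4.86 and 10.8 CPM. Each of those 3 had at most 0.0758 CPM in any other library, which is 1 read.

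Other synaptotagmins in the class were Syt2, a fast calcium sensor of hindbrain synapses, with 43.3 and 20.2 CPM in FFPE and frozen brain and at most 0.834 CPM elsewhere, and Syt13 with 61.8 and 67.1 CPM in brain and at most 1.76 CPM elsewhere. Syt6 (20.8 and 14.2 CPM) and Syt16 (15.8 and 15.2 CPM) in brain had at most 0.272 and 0.152 CPM elsewhere. Syt9 had 18.1 and 12.5 CPM in brain, and its highest level elsewhere was 1.38 CPM in FFPE liver. Rab15, a Rab of recycling endosomes, had 48.5 and 41.2 CPM in brain, and its next organ was kidney with 3.85 and 1.64 CPM. Rab39b had 22.8 and 20.6 CPM in brain and at most 0.816 CPM elsewhere.

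Of the 6 tested synaptotagmins outside the class, 5 were higher in brain, and Syt15 was not called. Syt8 was not tested and had 3 and 0 reads in FFPE and frozen brain and 16 and 0 reads in FFPE and frozen kidney. Syt7, a slow calcium sensor that acts also in lysosome fusion, had 133 and 89.6 CPM in FFPE and frozen brain, 35.9 and 17.6 in heart, 5.35 and 2.34 in kidney, and 2.14 and 1.25 in liver. Its levels followed the same organ order in both preparations, with no overlap between organs. Syt7 was the synaptotagmin that also rose in heart against the other organs, by 1.54 ± 0.19 (adjusted p = 0.000223), and in brain the difference was 4.36. Syt14 and Syt17 had 9.88 and 10.5 CPM, and 9.49 and 6.31 CPM, in brain, 3.26 and 5.44, and 4.94 and 2.46, in kidney, and 0 reads in both liver libraries. Both were higher in kidney than in the mean of the other organs, Syt14 by 3.17 ± 0.45 (adjusted p = 0.00078) and Syt17 by 2.57 ± 0.48 (adjusted p = 0.00304). Without the FFPE kidney library, Syt17 had an adjusted p of 0.0675. Syt15 stayed near 1 CPM, with 1.68 and 0.436 CPM in brain and 0.207 to 1.14 CPM elsewhere (difference 0.79, adjusted p = 0.266).

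SNAREs held paralogs with opposite organ patterns, compared here per kb of exon so that lengths do not matter. Snap25 had 86.0 and 47.3 CPM per kb in FFPE and frozen brain, where Snap23, its form in most other cells, had 1.99 and 1.10. In the other organs Snap23 had 5.17 to 8.07 CPM per kb and Snap25 at most 0.491. The Snap25 to Snap23 ratio in brain was 5.43 and 5.42 on the log2 scale, and in heart −3.59 and −4.82. Snap23 fell in brain against the other organs by 2.14 ± 0.19 (log2 CPM, adjusted p = 2.07e-05). Both preparations of brain gave nearly the same ratio although each gene's level differed between them.

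Syntaxins of the plasma membrane differed in how even they were. Stx4a, a syntaxin of constitutive and insulin-regulated fusion, had 6.28 and 6.98 CPM per kb in FFPE and frozen brain and 6.29 to 10.8 elsewhere. Stx1a, a syntaxin of the presynaptic membrane, had 9.84 and 4.37 CPM per kb in FFPE and frozen brain and 0.108 to 0.825 elsewhere. Its brain difference was 4.56 (log2 CPM). Per kb, Stx1a thus lay above Stx4a in FFPE brain and below it in frozen brain.

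Among vesicle SNAREs, Vamp2 of synaptic vesicles had 44.1 and 43.5 CPM per kb in FFPE and frozen brain and 2.07 to 6.53 elsewhere. Vamp8, the endosomal form that serves regulated secretion in epithelia and blood cells, ran the other way, with 0.532 and 0.498 CPM per kb in brain, 2.89 and 6.16 in heart, 13.2 and 17.7 in kidney, and 13.5 and 16.1 in liver. The Vamp2 to Vamp8 ratio was 6.34 and 6.42 (log2) in brain, 1.17 and −0.48 in heart, −1.22 and −2.18 in kidney, and −1.96 and −2.96 in liver, so its sign in heart depended on the preparation. Vamp8 fell in brain by 4.23 ± 0.24 (log2 CPM, adjusted p = 2.25e-06). Vamp5, which is found mainly in muscle, had 0.335 and 0.357 CPM in brain and fell there by 3.83 ± 0.31 (adjusted p = 1.22e-05). Vamp5 and Vamp8 are neighbors on chromosome 6, 4.75 kb apart. Vamp1 and Vamp4 were higher in brain, with differences of 4.00 and 1.97, as was Snap47 with 1.88.

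**Figure D2:**
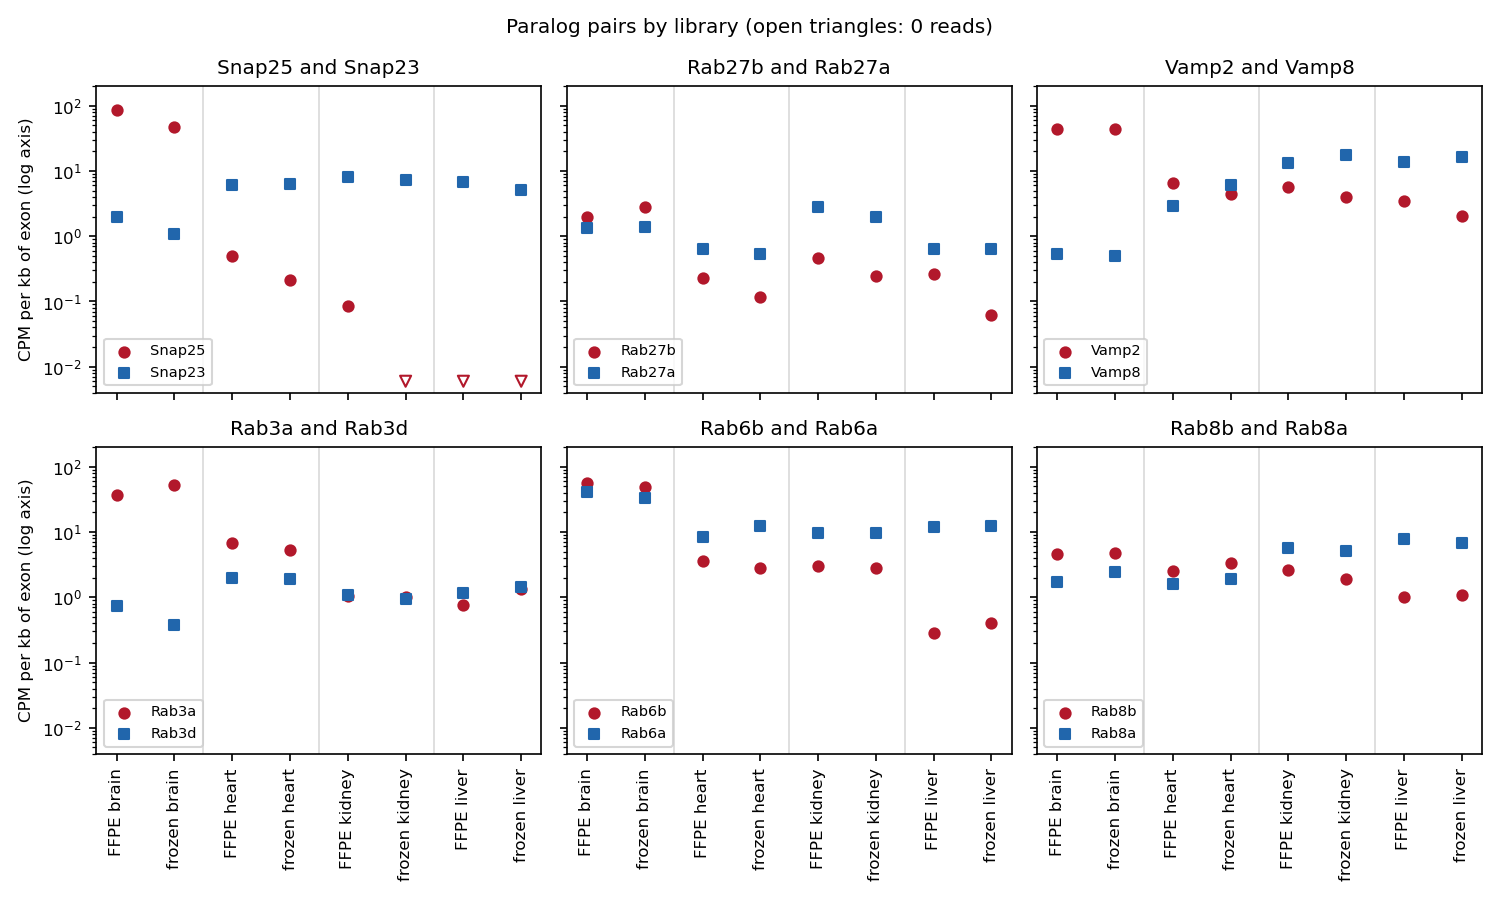
Levels of 6 pairs of paralogs in the 8 libraries, in CPM per kb of exon on a log axis, with the brain-high member as red circles, its paralog as blue squares and open triangles for 0 reads. Snap25 and Rab27b lie above their paralogs in brain and below them in the other 6 libraries, and Rab6b and Rab6a lie close together in brain and far apart in liver.

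Rab paralogs also differed in their organ pattern. Rab3a and Rab3c act on synaptic vesicles and Rab3d on secretory granules of gland cells. Rab3a had 82.0 and 116 CPM in FFPE and frozen brain, 15.3 and 11.6 in heart, 2.36 and 2.28 in kidney, and 1.72 and 2.98 in liver, whereas Rab3d had 3.13 and 1.59 CPM in brain and 3.92 to 8.34 elsewhere. Per kb, the log2 ratio of Rab3a to Rab3d was 5.61 and 7.10 in brain, 1.79 and 1.47 in heart, and −0.57 to 0.14 in kidney and liver. For Rab6b over the ubiquitous Rab6a it was 0.47 and 0.53 in brain, −1.24 and −2.15 in heart, −1.66 and −1.80 in kidney, and −5.36 and −4.91 in liver. Rab6a itself had 152 and 124 CPM in brain and 31.4 to 46.5 CPM elsewhere, so both forms were highest in brain.

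Rab8 turned between organs without being restricted. Rab8a and Rab8b both serve transport to the plasma membrane. The log2 ratio of Rab8b to Rab8a per kb was 1.40 and 0.99 in FFPE and frozen brain, 0.67 and 0.78 in heart, −1.13 and −1.42 in kidney, and −2.93 and −2.64 in liver. For Rab27b over Rab27a, which act in the release of granules and exosomes, it was 0.56 and 1.02 in brain and −1.28 to −3.28 in the other organs. Early endosomal Rab5c exceeded Rab5a per kb in all 8 libraries, with log2 ratios of Rab5a to Rab5c of −2.51 and −2.89 in kidney and −0.44 to −1.63 elsewhere.

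Of the 12 Rab genes lower in brain, Rab17, Rab20 and Rab32 had the largest differences. Rab17, a Rab of polarised epithelial cells, had 0.168 and 0 CPM in FFPE and frozen brain, 0.303 and 0.585 in heart, 8.70 and 15.5 in kidney, and 9.23 and 11.5 in liver, a brain difference of −5.94 ± 0.79 (adjusted p = 0.000203). Rab20, which acts in endosome and phagosome maturation, had 0.279 and 0.119 CPM in brain and 3.55 to 7.66 CPM elsewhere (−4.55 ± 0.38, adjusted p = 1.44e-05). Rab32, of mitochondria and lysosome-related organelles, had 0.670 and 0.952 CPM in brain (−2.40 ± 0.34, adjusted p = 0.000274), although heart with 0.607 and 1.27 CPM overlapped it. The low brain mean of Rab32 against the other organs thus rests on kidney and liver.

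In kidney 16 members were higher (16.8%, where 20.3% of all tested genes were) and 23 lower (24.2%, where 19.9% were), with a median of −0.15 beside −0.04 over all tested genes. In 10 of the 16 both kidney libraries exceeded the other 6, and in 6 of the 23 both lay below them. The mean of the other organs includes brain, so a member called lower in kidney need not be lowest there. Such counts were not made over all tested genes. Rab25 and Rab38 were the kidney-restricted members, 2.11% of those tested, where 1.93% of all tested genes were. Rab25, the epithelial relative of Rab11 in apical recycling, had 2.63 and 3.51 CPM in FFPE and frozen kidney and 0 to 0.152 CPM elsewhere, a difference of 5.43 ± 0.97. Rab38, a relative of Rab32 known from pigment organelles, had 4.40 and 4.16 CPM in kidney and 0 to 0.447 CPM elsewhere (4.61 ± 0.87). Both passed the level filter through kidney alone, so their calls as higher there are no test. Rab17 was higher in kidney by 4.12 ± 0.79 (adjusted p = 0.00361) and Vamp8 by 2.26 ± 0.24 (adjusted p = 0.000152). Without the frozen kidney library 9 were higher and 11 lower, where 10.9% and 8.26% of all tested genes were, and the adjusted p was 0.0549 for Rab25, 0.0561 for Rab38 and 0.0881 for Rab17.

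Kidney also had the highest level of the early endosomal Rab5c, with 51.5 and 82.9 CPM in FFPE and frozen kidney against 14.6 to 44.5 CPM elsewhere, and of Stx7 of late endosomes, with 61.3 and 63.7 CPM against 16.2 to 35.5 CPM. The differences were 1.41 and 1.46. Among the largest falls in kidney were those of Syt1, Snap25, Rab9b, Rab3c and Syt4, from −4.73 to −3.43, all of them brain-restricted genes. Rab9b had 0 reads in both kidney libraries, and Snap25, Rab3c and Syt4 had 0 in frozen kidney. The sizes of these 4 falls thus depend on the 0.5 reads added. Rab9b and Syt4 passed the level filter through brain alone, so their falls against a mean that includes brain are descriptions. Without the frozen kidney library the calls of Rab3c and Syt4 were lost, with differences of −2.30 and −1.36.

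In liver 19 members were higher (20%, where 27.3% of all tested genes were) and 44 lower (46.3%, where 35.2% were), with a median of −0.64 beside −0.13. In 9 of the 19 both liver libraries exceeded the other 6, and in 29 of the 44 both lay below them. No member was restricted to liver (0%, where 2.79% of all tested genes were). Rab43, a Golgi Rab, had 102 and 80.0 CPM in FFPE and frozen liver, against 8.37 to 19.6 CPM elsewhere, a difference of 2.95 ± 0.14 (adjusted p = 7.5e-07). Rab32 had 22.7 and 22.8 CPM in liver, against 3.99 and 3.86 in kidney and 0.607 to 1.27 in brain and heart (3.98 ± 0.34, adjusted p = 1.7e-05). Rab9, of transport from late endosomes to the Golgi, had 23.9 and 29.2 CPM in liver against 6.75 to 10.2 CPM elsewhere (1.69 ± 0.17, adjusted p = 4.31e-05). Both liver libraries exceeded the other 6 for each of these genes.

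Rab17, Vamp8 and Rab8a were high in liver and kidney together. The liver differences were 3.90 ± 0.79 for Rab17, 2.19 ± 0.24 for Vamp8 and 1.42 ± 0.18 for Rab8a, with adjusted p of 0.00274, 7.43e-05 and 0.000201. Stx5a, the syntaxin of transport between endoplasmic reticulum and Golgi, had 36.0 and 38.8 CPM in liver against 10.4 to 18.8 CPM elsewhere (difference 1.33). Among the falls, Snap25 (−6.96), Rab3c (−6.41), Syt17 (−6.005) and Syt14 (−5.77) had 0 reads in both liver libraries, so these fitted differences depend on the 0.5 reads added. Syt13 and Rab15 fell by 5.58 ± 0.52 and 5.51 ± 0.72 (adjusted p = 2.94e-05 and 0.000225). In FFPE and frozen liver Syt13 had 1 and 0 reads and Rab15 0 and 1, so these sizes depend on the 0.5 reads added too. Without FFPE liver 7 members were higher in liver and without frozen liver 10, where 19.4% and 19% of all tested genes were.

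In heart 15 members were higher (15.8%, where 21.5% of all tested genes were) and 38 lower (40%, where 28.7% were), with a median of −0.43 beside −0.19. In 10 of the 15 both heart libraries exceeded the other 6, and in 10 of the 38 both lay below them. As in kidney, a member called lower need not be lowest in heart, because the mean of the other organs includes brain. No member was restricted to heart (0%, where 1.47% of all tested genes were). Rab12, an endosomal Rab of receptor recycling and degradation, had 52.9 and 68.2 CPM in FFPE and frozen heart against 11.01 to 27.4 CPM elsewhere (1.93 ± 0.14, adjusted p = 1.23e-05). Stx11, a SNARE of cytotoxic lymphocytes and platelets, had 3.79 and 3.22 CPM in heart against 0.168 to 0.906 CPM elsewhere (2.77 ± 0.53). It passed the level filter through heart alone, so this difference is a description. Vamp5 had 8.04 and 11.01 CPM in heart against 0.335 to 4.80 CPM elsewhere (2.41 ± 0.31, adjusted p = 0.000315). Beside Stx11, the summed levels of 4 leukocyte markers were 24.5 and 78.5 CPM in FFPE and frozen heart against 2.68 to 33.8 CPM elsewhere. Most of that sum in heart was Lyz2, with 16.3 and 67.2 CPM. Ptprc had 7.89 and 11.1 CPM in heart against 1.90 to 13.7 CPM elsewhere. The lymphocyte markers Cd3e and Cd79a had at most 0.152 CPM in heart, and Cd3e reached 0.468 CPM in frozen kidney. The 2 platelet markers summed to 26.2 and 18.0 CPM in heart against 0.0397 to 2.08 CPM. The part of these markers in the result was not tested.

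Rab7b, of late endosomes, had 2.58 and 3.02 CPM in heart and Rab20 4.09 and 4.87 CPM, with differences of 1.79 ± 0.43 and 1.38 ± 0.38 (adjusted p = 0.00875 and 0.0162). Rab20 was higher still in kidney, with 7.66 and 5.74 CPM. Without frozen heart the adjusted p were 0.0794 and 0.193, and for Rab7b it was 0.0604 without FFPE heart. Syt9 fell most in heart, by 4.40 ± 0.48 (adjusted p = 0.000118), followed by Syt1 with 4.07 ± 0.68 (adjusted p = 0.00139). Rab38, Rab15, Rab26 and Syt4 had differences of −3.20, −2.79, −2.65 and −2.61. Rab26 and Syt4 passed the level filter through brain alone and Rab38 through kidney alone, so these 3 falls are descriptions. Rab26 had 0 reads in both heart libraries, so its size depends on the 0.5 reads added. Rab38, Rab26 and Syt4 lost the call without FFPE heart (adjusted p = 0.229, 0.106 and 0.19), and Rab15 and Syt4 without frozen heart (0.187 and 0.141). On CPM of all reads, a scale that lowers the heart median of all genes to −1.03, heart had 4 higher and 65 lower members, where 10.4% and 58.9% of all tested genes were.

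Shared members were those above 1 CPM in all 8 libraries whose 4 organ means lay within 2 log2 units (4-fold). They numbered 35, with 23 Rab genes, 12 SNAREs and 0 synaptotagmins, which is 36.8% of the tested members, where 41.1% of all tested genes were shared. The Rab genes were Rab1a, Rab1b and Rab2a (endoplasmic reticulum to Golgi), Rab5a, Rab5b, Rab21 and Rab22a (early endosomes), Rab4b, Rab11a, Rab11b, Rab14 and Rab35 (recycling), Rab7 and Rab9 (late endosomes), Rab6a and Rab33b (Golgi), Rab10, Rab18, Rab23, Rab24, Rab28, Rab3d and Rab40c. The SNAREs were Snap29, Vamp3 and Stx2, Stx4a, Stx5a, Stx6, Stx7, Stx8, Stx12, Stx16, Stx17 and Stx18. Summed, they had 1001 and 1052 CPM in FFPE and frozen brain and 770 to 999 CPM in the other 6 libraries. The limit on the organ means fixes that these sums lie close together.

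Rab10, which moves vesicles to the basolateral membrane and in fat and muscle carries glucose transporters, had 52.0 to 72.1 CPM over the 8 libraries. Its organ means spanned 0.34 log2 units. Rab2a had 44.2 to 71.2 CPM (0.38 log2 units), and Stx8 of late endosomes 5.08 to 8.48 CPM (0.20). Of the 35, 31 (88.6%) were called in at least 1 organ contrast, where 72% of the 6496 tested genes that meet the same rule were. The largest of those differences was the 1.79 of Rab6a in brain, and Rab6a (1.93) and Rab28 (1.96) lay just inside the limit on the range. Rab27a (2.001), Rab5c (2.03), Rab8a (2.05), Rab8b (2.17) and Vamp4 (2.18) lay just outside it.

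Genes that work with these families were taken as 5 lists. Of 20 genes of the release machinery, 19 were higher in brain and 0 lower, where 34.7% and 31.6% of all tested genes were, with a median of 7.27. In liver 18 were lower, where 35.2% of all tested genes were. Unc13a, which primes vesicles, had 192 and 140 CPM in FFPE and frozen brain (difference 7.997 ± 0.40, adjusted p = 1.37e-06), and Cplx1, a complexin that clamps SNAREs, 124 and 103 CPM (9.96 ± 0.58, adjusted p = 2.65e-06). Rims1 of the active zone and Cadps of dense-core vesicles had brain differences of 9.84 and 9.56. Unc13b was the gene not called, at 0.60 (adjusted p = 0.165). These 19 genes and Snap25 were higher in the same organ.

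Of 12 general fusion factors, 8 were higher in brain and 1 lower (median 0.78), beside the same 34.7% and 31.6%. Nsf, the ATPase that takes SNARE complexes apart, was higher in brain by 3.89 ± 0.15 (adjusted p = 5.93e-07), Napg by 1.97 and Stxbp5 by 1.59, and Stxbp3, a partner of Stx4, fell by 0.57. Of 10 SNAREs without a member symbol, 2 were higher and 3 lower in brain, where 34.7% and 31.6% of all tested genes were. In liver 7 were higher and 1 lower, where 27.3% and 35.2% of all tested genes were. Bet1 and Sec22b, of transport between endoplasmic reticulum and Golgi like Stx5a, were higher in liver by 2.31 ± 0.24 and 1.26 ± 0.17 (adjusted p = 5.16e-05 and 0.000265).

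Among 13 Rab regulators 7 were higher and 3 lower in brain (median 0.60), where 34.7% and 31.6% of all tested genes were. Gdi2, a GDP dissociation inhibitor that keeps Rab proteins soluble, fell in brain by 0.59 ± 0.14 (adjusted p = 0.00468). Rab3ip, an exchange factor for Rab8, fell in brain by 1.85 and was higher in kidney by 2.48. Of 12 Rab effectors 5 were higher and 2 lower in brain, where 34.7% and 31.6% of all tested genes were. In kidney 5 were higher and 0 lower, where 20.3% and 19.9% of all tested genes were. Myrip, an effector of Rab27, was higher in brain by 5.14 ± 0.54 (adjusted p = 5.11e-05), and Rilp, an effector of Rab7, fell there by 4.62 ± 0.31 (adjusted p = 5.21e-06). In kidney the Rab11 effectors Rab11fip1, Rab11fip3 and Rab11fip5 were higher by 2.48, 2.67 and 1.85.

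Averaged over the organs, the comparison of FFPE with frozen tissue called few members and few of all tested genes. In that comparison 1 member was higher in FFPE (1.05%, where 1.2% of all tested genes were) and 0 lower (0%, where 2.18% were), with a median of 0.04 beside 0.07 over all tested genes. At an unadjusted p under 0.05 (limma) there were 10 higher and 7 lower. A member without a call may still differ, and no test was made within any organ. Members lay within 2-fold of each other in FFPE and frozen tissue in 86.3% of cases in brain, 81.1% in heart, 81.1% in kidney and 89.5% in liver, where 85.4%, 80.7%, 82.8% and 85.1% of all tested genes did.

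The member called was Syt7. Its FFPE level was above its frozen level in each organ, by 0.57 in brain, 1.02 in heart, 1.18 in kidney and 0.74 in liver on the log2 scale, with a mean of 0.88 ± 0.16 (adjusted p = 0.0318). The call was lost whichever library was left out, and the mean difference was then 0.78 to 0.98. Fewer of all tested genes were called in each of those fits too. A log2-scale count model with read weights (voom) called 5 members higher and 3 lower, where 3.62% and 5.28% of all tested genes were. On CPM of all reads, which moves the median of all genes to 0.54, 15 were higher, where 23.1% of all tested genes were.

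**Figure D3:**
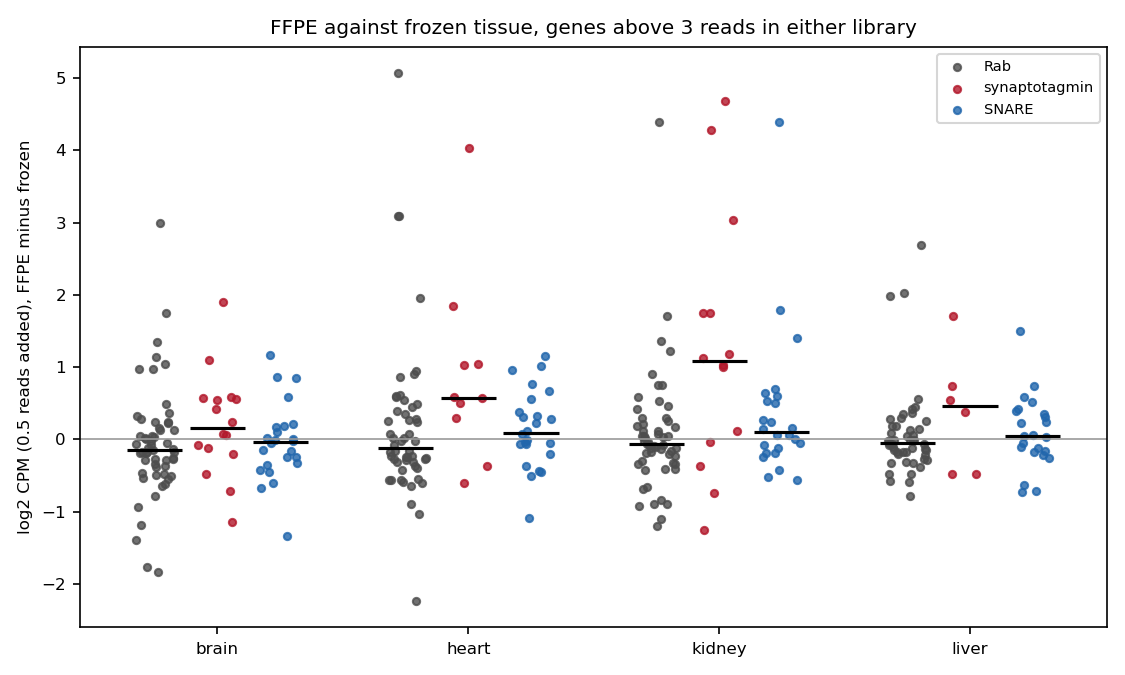
FFPE minus frozen difference in log2 CPM (0.5 reads added) within each organ, for members with more than 3 reads in either library. Points are genes, colored by family, and black bars are medians, which for synaptotagmins are 0.16 in brain (n = 16), 0.58 in heart (n = 10), 1.08 in kidney (n = 14) and 0.46 in liver (n = 6).

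Within brain each preparation is 1 library, and none of the differences given here passed the FFPE test over the 4 organs. On the log2 scale, FFPE minus frozen brain was 1.17 for Stx1a, 1.10 for Syt2, 0.86 for Snap25, 0.86 for Snap23, 0.24 for Syt1, 0.08 for Syt4 and 0.02 for Vamp2. It was −1.40 for Rab3b, a Rab3 of endocrine and some neuronal cells, and −1.15 for Syt10. Of the cerebellar neuron markers, 3 had few or no reads in frozen brain. Gabra6 had 742 reads in FFPE brain and 0 in frozen brain, Pcp2 98 and 0, and Cbln3 1069 and 4. Of the neuron markers, Slc17a7 had 156 CPM in FFPE and 5.08 CPM in frozen brain, Rbfox3 73.9 and 44.7 and Nefl 107 and 99.9, whereas Gad1 had 115 and 181 and Tubb3 55.8 and 87.8. The 5 cerebellar markers summed to 227 CPM in FFPE and 21.5 CPM in frozen brain. Their part in the differences of the members was not tested.

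Traces of the brain-restricted members in the other organs also differed between preparations. Of the 19, 17 had reads in FFPE heart and 13 in frozen heart, 17 in FFPE kidney and 12 in frozen kidney, and 10 in FFPE liver and 7 in frozen liver. Their reads summed to 561 and 274 in FFPE and frozen heart, 717 and 431 in kidney, and 236 and 134 in liver. In CPM the sums were 42.5 and 26.7 in heart, 32.5 and 25.2 in kidney, and 16.3 and 12.9 in liver. Most reads in heart and kidney came from Rab6b (237 and 145 in heart, 335 and 240 in kidney) and Syt11 (158 and 82, 151 and 108). These sums thus describe few of the 19 genes. As a share of the level in brain of the same preparation, the median member stood at 0.836% in FFPE heart, 0.237% in frozen heart, 0.773% in FFPE kidney, 0.168% in frozen kidney, 0.0609% in FFPE liver and 0% in frozen liver. FFPE libraries were above frozen ones in each organ by this measure. A level of 3 reads was 0.227 and 0.292 CPM in FFPE and frozen heart, 0.136 and 0.176 in kidney, and 0.207 and 0.288 in liver, so the FFPE libraries resolved lower levels.

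Markers of neurons, of glia, and of adrenal medulla and sympathetic cells were counted in the same libraries. The 5 neuron markers summed to 256 reads in FFPE heart and 37 in frozen heart, of which Slc17a7 gave 215 in FFPE heart, to 47 and 9 in kidney, and to 1 and 6 in liver. The 3 oligodendrocyte markers summed to 259 and 63 reads in FFPE and frozen heart, 228 and 97 in kidney, and 18 and 7 in liver. The 4 adrenal medulla and sympathetic markers summed to 37 and 8 reads in FFPE and frozen heart, 32 and 0 in kidney, and 0 and 0 in liver. Schwann cell markers summed to 39 and 7 reads in heart, 65 and 38 in kidney, and 8 and 6 in liver, and none of these markers' parts in the traces was tested. In FFPE and frozen liver, Syt1 had 102 and 50 reads beside the 1 and 6 reads of all 5 neuron markers.

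**Figure D4:**
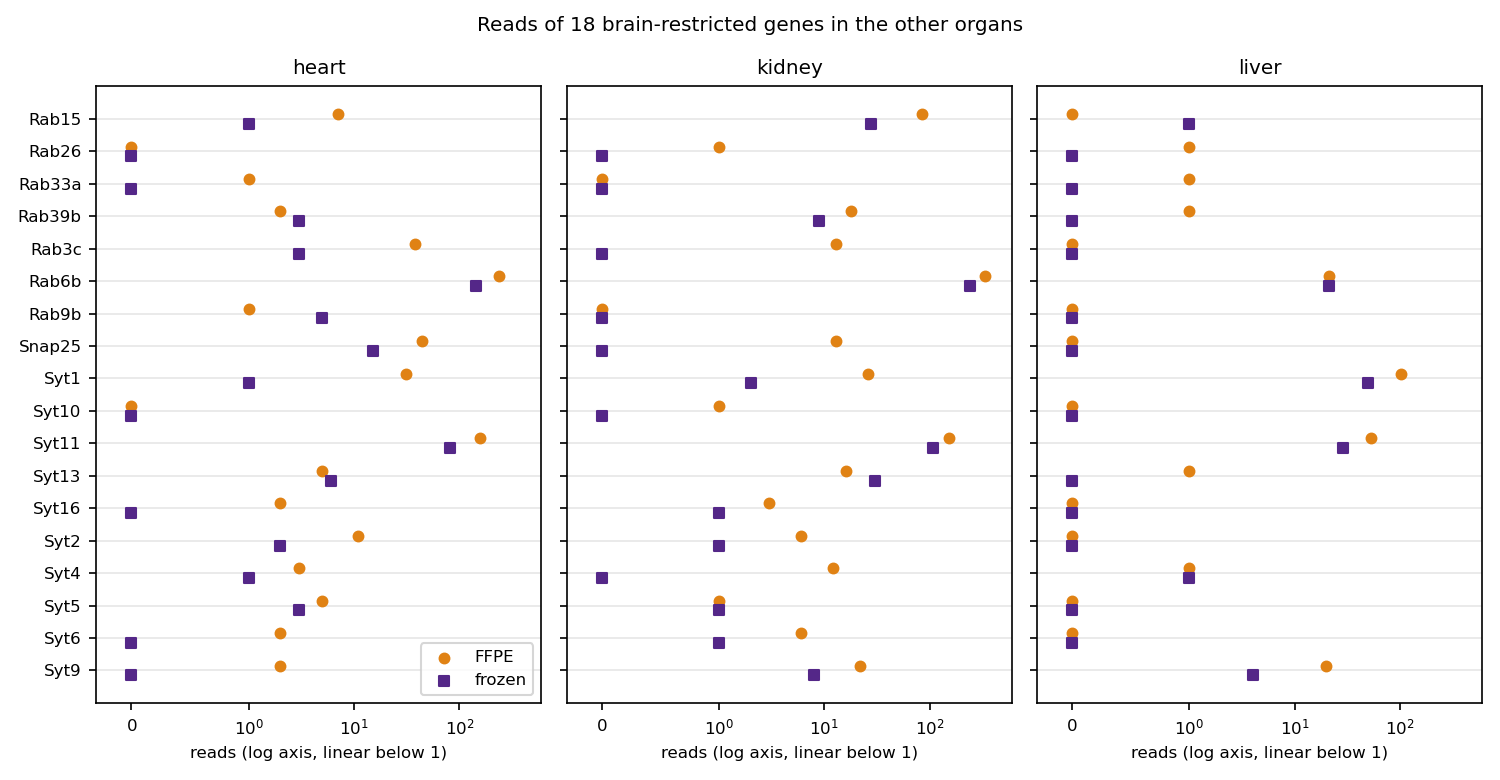
Reads of 18 of the 19 brain-restricted genes (rows) in heart, kidney and liver, on an axis that is logarithmic above 1 read and linear below, with FFPE as orange circles and frozen as purple squares. Rab6b and Syt11 are among those with reads in all 6 libraries, and for most genes the FFPE point lies at or to the right of the frozen point.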

How the data were processed

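Total RNA was sequenced from 1 FFPE and 1 frozen library of each of 4 mouse organs. HISAT2, featureCounts, limma and genome mm10 are named without versions in the submitters' processing notes (the strand setting, annotation and scaling method are not stated there). The table the authors deposited holds log2 CPM values with 0.5 reads added, per library size times a scaling factor of 0.500 to 1.76, and whole reads were recovered from 100% of the values (within 1e-06). The columns carry "counts" in their headers.

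Libraries were grouped by title, tissue and treatment labels. Organs (each minus the mean of the other 3) and FFPE minus frozen were tested with limma 3.58.1 (R 4.3.3), using a trend of spread over level, a term per organ and 1 for preservation (3 residual degrees of freedom, prior 5.35), on genes with log2 CPM above 0 in at least 2 libraries. Printed SEs come from a spread drawn toward the trend, and differences of genes with few reads depend on the 0.5 added. The script was tested on simulated data. Reads carry no molecular identifiers, so the limit of 3 reads covers counting error only. Without a stated strand setting, reads of overlapping genes cannot be told apart.

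Genes were named by rule: each restricted member, each member called between FFPE and frozen tissue with 1 sign in 4 of 4 organs, the 6 largest differences called each way per organ, set paralog groups and up to 4 genes per list. Rab5c, Stx7 and Stx5a, and the synaptotagmins and list genes beyond these, were chosen after their values were seen. Members, lists and tests were chosen with earlier results of these data known. Exon lengths come from GENCODE M21, gene positions and promoters from RefSeq (GRCm38.p6). Alternatives were other filters, scalings, spread models, pseudocounts, class thresholds and each library left out. Values of 1 member and 1 list gene are not reported here.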

Additional observations from a re-analysis of the deposited data

Results flagged for a closer look

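Rab29, a Rab of the trans-Golgi network and lysosomes, and Rab3b stood out by their FFPE minus frozen differences. These exceeded 1 log2 unit in size with opposite signs in 2 organs, with more than 3 reads in either library. Opposite signs of smaller size were common among members. Rab29 had 1.40 CPM in FFPE and 0.674 CPM in frozen brain, a log2 difference of 1.04, and 3.08 and 6.61 CPM in FFPE and frozen kidney, a difference of −1.10. Rab3b had 1.59 CPM in FFPE heart and 0 reads in frozen heart, a fitted log2 difference of 5.06 that depends on the 0.5 reads added, and 8.49 and 22.4 CPM in FFPE and frozen brain, a difference of −1.40. With 1 library per organ and preparation, whether these organs differ was not tested.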

How the results depend on the processing

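All 49 differences of named members kept their sign in 830 recomputed values, of which 797 also kept their call and 33 lost it, over 13 differences. The count of 54 members higher in brain ranged from 45 to 72. CPM of all reads moved the median of all genes to 0.98 in brain, −1.03 in heart, 0.20 in kidney, −0.46 in liver and 0.54 for FFPE, and quantile scaling and median centring moved brain to −0.21 and −0.20. With CPM of all reads, 7 members were lower in brain (28 with quantile scaling), 4 higher and 65 lower in heart, 7 higher in liver, 15 higher in FFPE and 1 restricted to kidney (1 also with quantile scaling). Of all 15819 tested genes, 9043 were then higher and 2457 lower in brain (4783 and 6183 with quantile scaling). With CPM of all reads 2797 of them were higher in liver. Higher in FFPE were 0 with quantile scaling, without a trend and with log2(CPM + 5), and 5 with voom. Of all 15819 tested genes, 49, 0, 114 and 572 were higher in FFPE in these settings. Lower in FFPE were 1 with a stricter filter (log2 CPM above 2) and 3 with voom, where 397 of 13126 and 835 of 15819 tested genes were. With log2(CPM + 5), 8 members were brain-restricted and 0 kidney-restricted. A 2-fold gap gave 35 restricted to brain, 1 to heart and 3 to liver, and a range under 1 log2 unit 19 shared members. Under other settings the restricted and shared classes were counted for members only. Their moves are therefore not read as particular to members. Leaving out a library, where the lone library is assumed to vary like the others, gave 9 to 18 higher and 11 to 24 lower in kidney, 7 to 19 higher in liver, 0 higher in FFPE each time, and 0 to 2 lower (2 without FFPE or frozen heart). Fewer of all tested genes were called for FFPE too with each library left out, so the lost calls do not describe members alone. The class counts without each library were added after seeing the data and gave 19 to 21 brain-restricted members. The causes of these moves were not tested. The quasi-likelihood count model was not run, because the deposited values are log2. The organ term already set each FFPE library against the frozen library of its organ, and the labels give no replicate numbers for another pairing. At 3 reads the depth does not resolve levels below 0.119 to 0.292 CPM.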
